A study of Homo sapiens with 6 samples.

Results

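Intermediate filament genes were followed in the human cell line TC-71, established from an Ewing sarcoma, with knockout of XG and without it. The product of XG is a glycoprotein of the cell surface and the carrier of the Xg blood group. The members were the rows of the count table whose gene name is NEFL, NEFM, NEFH, INA, PRPH, VIM, NES, KRT8, KRT18 or GFAP. Each of the 10 names had 1 row, out of 60662 genes in the table. The groups were 3 XG knockout libraries and 3 wildtype libraries, all from untreated cells grown in the same serum-containing medium, and they formed 1 comparison. Neither the origin of the knockout cells (1 clone or a pool) is given in the labels, nor whether replicates came from separate cultures, so any test over these libraries measures a spread that may be technical. The set was chosen with the knockout and wildtype values of these libraries already known. Its differences between the groups are therefore given as a description, with the fold change and its standard error (SE), and no test of them is used as support.

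Intermediate filaments are rope-like polymers that give cells mechanical strength, and each cell type builds them from its own subunits. Neurons use the neurofilament triplet (NEFL, NEFM and NEFH), alpha-internexin (INA) and peripherin (PRPH), mesenchymal cells use vimentin (VIM), neural progenitors add nestin (NES), simple epithelia pair the keratins KRT8 and KRT18, and astrocytes use GFAP. Ewing sarcoma is a tumour of bone and soft tissue whose cells can carry neural and mesenchymal features side by side.

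The libraries held 22557187 to 31214099 counted fragments, and 14425 genes passed the filter on low counts. XG itself was reduced and not absent: it stood at 30.0, 30.0 and 28.9 CPM in XG knockout replicates 1, 2 and 3, against 45.4, 47.1 and 44.4 CPM in wildtype replicates 1, 2 and 3 (log2 fold change -0.63, SE 0.0478). CPM is the count divided by the library total after scaling, on a scale common to all libraries. Of 12 markers of Ewing sarcoma, 11 passed the filter, with CCND1 the most abundant. In edgeR 1 was called at an adjusted p under 0.05 (CD99, lower), in a fit that called 1.36% of all genes. CD99 stood at 92.3% of wildtype (log2 fold change -0.12, SE 0.0253). In CD99, CCND1 and LIPI the XG knockout libraries lay wholly below wildtype, and in the other markers of this list the groups overlapped. CCND1 averaged 1359.5 CPM in XG knockout and 1418.5 CPM in wildtype libraries. The sum of the 12 markers was 4195 to 4199 CPM in XG knockout and 4260 to 4315 CPM in wildtype libraries. Summed fibroblast markers were at 36.0 to 43.5 CPM in XG knockout and 37.9 to 41.0 CPM in wildtype libraries, and those of sympathetic neuroblasts, nearly all HAND2, at 10.8 to 11.6 and 11.1 to 11.4 CPM. Summed markers of blood, endothelium, epithelium, skeletal muscle and glia each stayed at or under 1.73 CPM in XG knockout and 1.61 CPM in wildtype libraries. DES, MYOG, TH, DBH and SOX10 had 0 counts in all libraries. XG knockout replicate 3 stood apart from the other knockout libraries: the chi-square per gene was 4.70 and 4.33 against XG knockout replicates 1 and 2, and 2.15 to 2.38 against the wildtype libraries. Expression also followed the GC content of the transcript. For each 10 percentage points of GC, log2 CPM changed by -0.070 and -0.047 in XG knockout replicates 1 and 2 and by 0.036 in XG knockout replicate 3, against 0.029, 0.032 and 0.020 in wildtype replicates 1, 2 and 3. The part of this trend in the differences between groups was not tested beyond the corrected values given beside them.

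The vimentin gene and a neurofilament gene both had high RNA levels in TC-71. Compared per length of exon, VIM stood at 219 ± 6.70 CPM per kb in XG knockout and 235 ± 1.89 CPM per kb in wildtype libraries (SD, n = 3 each), and NEFH at 161 ± 5.66 and 165 ± 4.93 CPM per kb. In wildtype cells VIM was above 99.2% and NEFH above 98.6% of all genes tested. NEFL followed at 21.7 ± 0.732 CPM per kb in XG knockout and 24.5 ± 0.516 CPM per kb in wildtype libraries. NEFM, PRPH and INA formed a close group, at 12.4 ± 0.321, 12.5 ± 0.832 and 9.89 ± 0.419 CPM per kb in XG knockout and 14.7 ± 0.698, 11.1 ± 0.376 and 10.3 ± 0.427 CPM per kb in wildtype libraries. In that group the ranges of NEFM and PRPH overlapped in XG knockout libraries, and those of PRPH and INA overlapped in wildtype libraries, where the lowest PRPH and the highest INA value were both 10.7 CPM per kb. Overlap does not show that such neighbours stand at the same level. NES stood at 1.92 ± 0.130 and 2.31 ± 0.0498 CPM per kb, and KRT18 and KRT8 lay lowest among the detected members, at 1.06 ± 0.0751 and 0.562 ± 0.0474 CPM per kb in XG knockout and 0.660 ± 0.0184 and 0.452 ± 0.0413 CPM per kb in wildtype libraries. The length used decides part of this order. With the length of the longest transcript, the wildtype level of VIM was 456 CPM per kb, and KRT8 lay above KRT18 in wildtype libraries, at 1.09 against 0.970 CPM per kb.

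**Figure D1:**
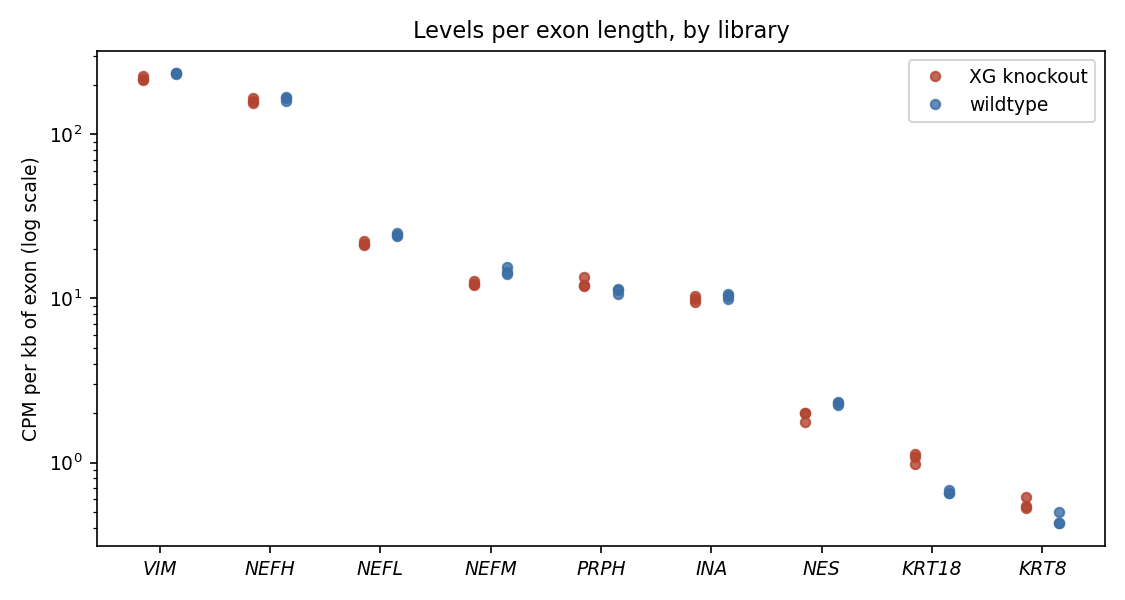
Level of 9 intermediate filament genes as CPM per kb of exon, on a log axis, with 1 point per library (3 XG knockout and 3 wildtype). VIM and NEFH stand above 150 CPM per kb in every library, and KRT18 is the gene whose groups are farthest apart.

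Within the neurofilament triplet, NEFL and NEFM lay lower in all XG knockout libraries, and NEFH overlapped between the groups. NEFL (ENSG00000277586.2, chromosome 8, 24950955 to 24957110, minus strand, GRCh38) encodes the light subunit, which forms the filament core. It was at 91.2, 93.5 and 97.5 CPM in XG knockout replicates 1, 2 and 3, against 106, 108 and 104 CPM in wildtype replicates 1, 2 and 3. Every knockout value was below every wildtype value, with knockout replicate 3 the nearest, and the level was 88.9% of wildtype (log2 fold change -0.17, SE 0.0359).

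NEFM (ENSG00000104722.14, chromosome 8, 24913758 to 24919098, plus strand) encodes the medium subunit and is the neighbour of NEFL. The genes point at each other, with 31856 bases between their ends. NEFM had 44.4, 44.2 and 46.3 CPM in XG knockout replicates 1, 2 and 3, against 56.3, 51.5 and 52.6 CPM in wildtype replicates 1, 2 and 3. The groups did not overlap, and the level was 84.1% of wildtype (log2 fold change -0.25, SE 0.0463).

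NEFH (ENSG00000100285.10, chromosome 22, 29480218 to 29491390, plus strand) encodes the heavy subunit, whose long phosphorylated tail projects from the filament. It was the most abundant of the triplet. NEFH was at 591, 608 and 634 CPM in XG knockout replicates 1, 2 and 3, against 632, 604 and 640 CPM in wildtype replicates 1, 2 and 3. The groups overlapped, and the log2 fold change was -0.034 (SE 0.0300). Its sign turned to 0.026 with a correction for GC content and to 0.020 with knockout replicate 3 alone. NEFH made up 82.5 ± 0.109% of the triplet's summed level per kb in XG knockout and 80.8 ± 0.600% in wildtype libraries (SD, n = 3 each). The ratio of NEFH to NEFM per kb was 12.8, 13.2 and 13.1 in XG knockout replicates 1, 2 and 3, against 10.7, 11.2 and 11.7 in wildtype replicates 1, 2 and 3. The ratio of NEFL to NEFM was 1.73, 1.78 and 1.77 in XG knockout and 1.58, 1.76 and 1.66 in wildtype libraries. The NEFH to NEFM ratio thus separated the groups, whereas the NEFL to NEFM ratio overlapped between them.

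**Figure D2:**
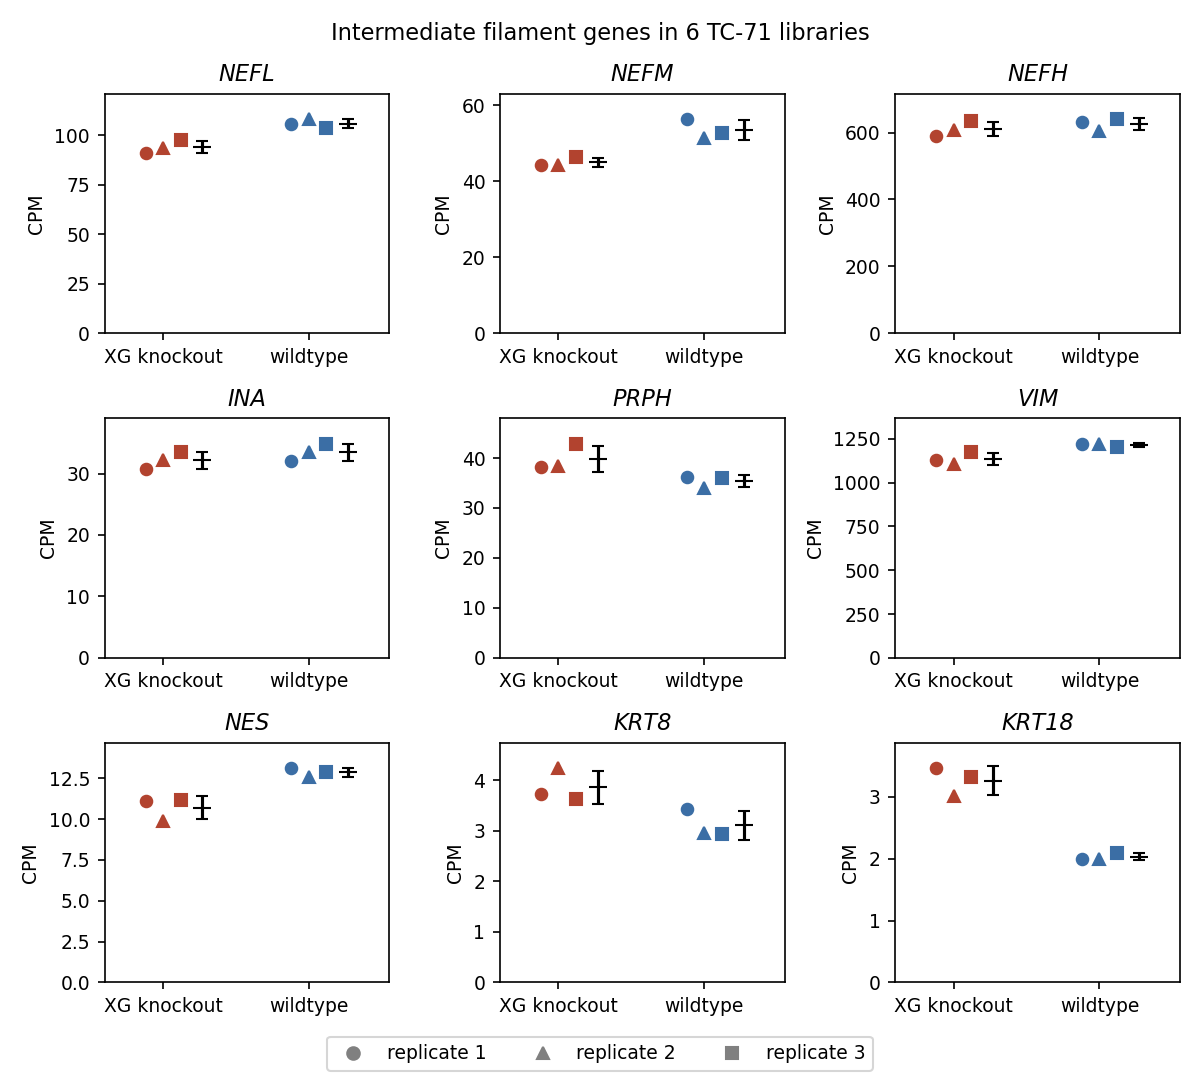
CPM of 9 intermediate filament genes in each of 6 libraries, on axes that start at 0. Coloured symbols are single libraries by replicate number, and the black mark with its bar is the mean and SD of 3 libraries. NEFL, NEFM, VIM and NES lie lower and PRPH, KRT8 and KRT18 higher in all XG knockout libraries, and NEFH and INA overlap.

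Of the other neuronal filament genes, INA overlapped between the groups and PRPH lay higher in all XG knockout libraries. INA (ENSG00000148798.11, chromosome 10, 103277138 to 103290346, plus strand) encodes alpha-internexin, which joins the triplet in neurons of the central nervous system. It had 30.7, 32.2 and 33.5 CPM in XG knockout replicates 1, 2 and 3, against 32.1, 33.5 and 34.8 CPM in wildtype replicates 1, 2 and 3. The groups overlapped (log2 fold change -0.056, SE 0.0528).

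PRPH (ENSG00000135406.14, chromosome 12, 49293252 to 49298686, plus strand) encodes peripherin, the type III filament of peripheral neurons. It had 38.2, 38.4 and 42.8 CPM in XG knockout replicates 1, 2 and 3, against 36.2, 34.0 and 36.1 CPM in wildtype replicates 1, 2 and 3. No overlap was seen, with knockout replicate 3 the farthest from wildtype (112% of wildtype, log2 fold change 0.17, SE 0.0540). Its transcript is the richest in GC among the members, at 61.6%, and with the GC correction its log2 fold change was 0.26. It was 0.28 with knockout replicate 3 alone and 0.11 without that library. Per kb, the ratio of PRPH to NEFL was 0.575 ± 0.0206 in XG knockout and 0.456 ± 0.0240 in wildtype libraries (SD, n = 3 each).

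VIM and NES lay lower in all XG knockout libraries. VIM (ENSG00000026025.16, chromosome 10, 17228241 to 17237593, plus strand), the vimentin gene of mesenchymal cells, had 1129, 1105 and 1173 CPM in XG knockout replicates 1, 2 and 3, against 1222, 1221 and 1204 CPM in wildtype replicates 1, 2 and 3. The groups did not overlap, and the difference was small in proportion, at 93.4% of wildtype (log2 fold change -0.099, SE 0.0260). It was -0.11 with the GC correction and -0.051 with knockout replicate 3 alone.

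NES (ENSG00000132688.11, chromosome 1, 156668763 to 156677407, minus strand) encodes nestin, a large filament protein that assembles together with vimentin. NES had 11.1, 9.87 and 11.2 CPM in XG knockout replicates 1, 2 and 3, against 13.1, 12.6 and 12.9 CPM in wildtype replicates 1, 2 and 3. The groups did not overlap (83.3% of wildtype, log2 fold change -0.27, SE 0.0768). GC makes up 59.3% of its transcript, and the GC-corrected log2 fold change was -0.20. The ratio of VIM to NES per kb was 114 ± 5.58 in XG knockout and 102 ± 2.48 in wildtype libraries (SD, n = 3 each).

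RefSeq promoter windows of build GRCh38.p14, 250 bases before to 50 bases after a gene's start, were at hand for 5 of the 10 members. Those of VIM, NES and PRPH are shown because VIM and NES lay lower and PRPH higher in every XG knockout library. KRT8 also lay higher in every XG knockout library. Its window and that of PRPH lie at a RefSeq start inside the gene as the count table annotates it, and for KRT8 only the counts of motifs are given. They are written 5′ to 3′ on the gene's strand, and capitals mark GGAA on either strand, the core letters bound by ETS factors, to which the FLI1 part of the Ewing sarcoma fusion belongs.
VIM, chr10:17227991-17228290, plus strand: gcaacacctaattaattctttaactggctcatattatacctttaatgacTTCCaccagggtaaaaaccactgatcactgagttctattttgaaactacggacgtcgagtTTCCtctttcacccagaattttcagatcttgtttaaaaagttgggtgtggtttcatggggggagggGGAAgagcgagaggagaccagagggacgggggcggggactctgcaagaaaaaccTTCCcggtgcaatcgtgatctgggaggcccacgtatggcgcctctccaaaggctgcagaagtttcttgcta
NES, chr1:156677358-156677657, minus strand: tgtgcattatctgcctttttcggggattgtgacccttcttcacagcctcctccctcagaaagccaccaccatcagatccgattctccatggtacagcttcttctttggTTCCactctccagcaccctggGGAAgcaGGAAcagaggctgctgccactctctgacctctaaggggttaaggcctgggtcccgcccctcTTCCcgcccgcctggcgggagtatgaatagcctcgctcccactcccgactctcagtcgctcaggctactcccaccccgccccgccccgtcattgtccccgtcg
PRPH, chr12:49294897-49295196, plus strand: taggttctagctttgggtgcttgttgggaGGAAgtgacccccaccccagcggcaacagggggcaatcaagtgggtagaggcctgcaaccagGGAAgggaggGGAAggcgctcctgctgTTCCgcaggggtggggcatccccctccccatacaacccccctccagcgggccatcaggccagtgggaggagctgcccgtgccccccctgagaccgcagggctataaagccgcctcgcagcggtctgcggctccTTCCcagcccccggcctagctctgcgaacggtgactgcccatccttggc
GGAA occurred 4 times in the VIM, 4 times in the NES and 5 times in the PRPH window and 3 times in that of KRT8, with overlapping matches counted, and 95.45% of 35116 windows of this length hold it at least once, with a median of 3. The doubled form GGAAGGAA was in none of these windows and in 3.67% of all. The GC box GGGCGG, read on both strands, occurred 4 times in the NES and 1 time in the VIM window and had no match in those of PRPH and KRT8, and 44.95% of all windows hold it. TATAAA had 1 match in the PRPH window and none in those of VIM, NES and KRT8, against 11.5% of all windows with a match. The AP-1 letters TGANTCA had no match in these windows, and 7.71% of all windows hold them. The window of INA, whose groups overlapped, is not shown. It held GGAA 3 times and GGGCGG 4 times, and none of the other motifs counted. A match is a description of the letters and no evidence of binding.

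The keratin pair was present at low level and lay higher in XG knockout libraries. KRT18 (ENSG00000111057.11, chromosome 12, 52948871 to 52952906, plus strand) encodes the acidic keratin of simple epithelia. It had 86, 95 and 96 counts in XG knockout replicates 1, 2 and 3, against 55, 52 and 47 counts in wildtype replicates 1, 2 and 3. Scaled, it averaged 3.26 ± 0.231 CPM in XG knockout and 2.03 ± 0.0566 CPM in wildtype libraries (SD, n = 3 each). The groups did not overlap (161% of wildtype, log2 fold change 0.68, SE 0.149), the largest proportional difference among the 9 members tested. Of the 4 epithelial markers, CLDN4, a claudin of tight junctions, also lay higher in every XG knockout library, with 5, 10 and 5 counts in XG knockout replicates 1, 2 and 3, against 2, 3 and 3 counts in wildtype replicates 1, 2 and 3. EPCAM overlapped, with 8, 8 and 1 counts in XG knockout and 6, 5 and 7 counts in wildtype libraries, and CDH1 and KRT19 had at most 2 counts in any library. The sum of the list was 0.242 to 0.664 CPM in XG knockout and 0.307 to 0.489 CPM in wildtype libraries, and none of its genes passed the filter on low counts. The part of such cells in the keratin values was not tested.

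KRT8 (ENSG00000170421.12, chromosome 12, 52897187 to 52949954, minus strand) encodes its basic partner, and the annotated loci overlap by 1084 bases on opposite strands. It had 93, 134 and 105 counts in XG knockout replicates 1, 2 and 3, against 95, 77 and 66 counts in wildtype replicates 1, 2 and 3, or 3.74, 4.24 and 3.63 CPM against 3.44, 2.96 and 2.94 CPM. The groups did not overlap, with knockout replicate 3 next to wildtype replicate 1 (log2 fold change 0.31, SE 0.135). KRT8 and KRT18 have many processed pseudogenes, and fragments shared with them were not counted (no multi-mapping option was set), which leaves both levels uncertain. The 52 KRT8 pseudogene rows summed to 92, 102 and 118 counts in XG knockout replicates 1, 2 and 3, against 96, 82 and 94 counts in wildtype replicates 1, 2 and 3. For the 68 KRT18 pseudogene rows the sums were 13, 30 and 29 counts in XG knockout and 36, 21 and 21 counts in wildtype libraries, which overlapped.

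GFAP (ENSG00000131095.13, chromosome 17, 44903159 to 44916937, minus strand), the astrocyte filament, had 0 counts in XG knockout replicates 1, 2 and 3 and 0, 1 and 0 counts in wildtype replicates 1, 2 and 3. A count of 0 allows up to 3 counts, or 0.0949 to 0.121 CPM in an XG knockout library, by counting error alone. No fold change is given for it.

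Across the members, 9 of 10 passed the filter on low counts, and GFAP did not. Of the 9 tested, NEFL and NEFM were called lower and KRT18 higher at a Benjamini-Hochberg adjusted p under 0.05 in edgeR's quasi-likelihood fit over all genes, in which 1.36% of genes were called, 0.915% lower and 0.444% higher. The knockout libraries lay wholly below the wildtype libraries in 4 members and wholly above in 3, against 9.8% and 10.7% of all genes tested. These shares are printed as background, since the set was chosen on the same contrast. The median log2 fold change was -0.056 over the 9 members and 0.0019 over all genes tested. In the authors' deposited table, the log2 fold changes were -0.17 for NEFL, -0.25 for NEFM, -0.10 for VIM and 0.68 for KRT18, and that table lists an adjusted p under 0.05 for NEFL, NEFM and VIM and none for KRT18, KRT8, NES and GFAP. In these bulk libraries, fewer cells that express a gene and less RNA per cell cannot be told apart.

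Leaving out single libraries changed which members were called, while the directions of 7 of the 9 members did not change in any setting run. No member was called without XG knockout replicate 2, wildtype replicate 1 or wildtype replicate 3. Those fits called only 0.281%, 0.164% and 0.122% of all genes. NEFM alone was called without XG knockout replicate 1 or wildtype replicate 2, in fits that called 0.457% and 0.177% of all genes. Without XG knockout replicate 3, 5 members were called (NEFL, NEFM, VIM and NES lower, KRT18 higher), in a fit that called 12.7% of all genes. With XG knockout replicate 3 alone, a fit whose spread comes from wildtype and which takes that library to vary as they do, NEFM was called lower (log2 fold change -0.21) and PRPH higher (0.28), and 0.83% of all genes were called. VIM was called lower by DESeq2 and limma voom as well, which called 1.39% and 1.5% of all genes. After GC correction NEFL, NEFM and VIM were called lower and PRPH and KRT18 higher, in a fit that called 2.36% of all genes. The corrected log2 fold changes were -0.175 for NEFL, -0.22 for NEFM, 0.72 for KRT18, 0.36 for KRT8 and -0.046 for INA. NEFL ranged from -0.20 to -0.12 on the log2 scale over the settings run, NEFM from -0.28 to -0.21 and KRT18 from 0.64 to 0.74.

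**Figure D3:**
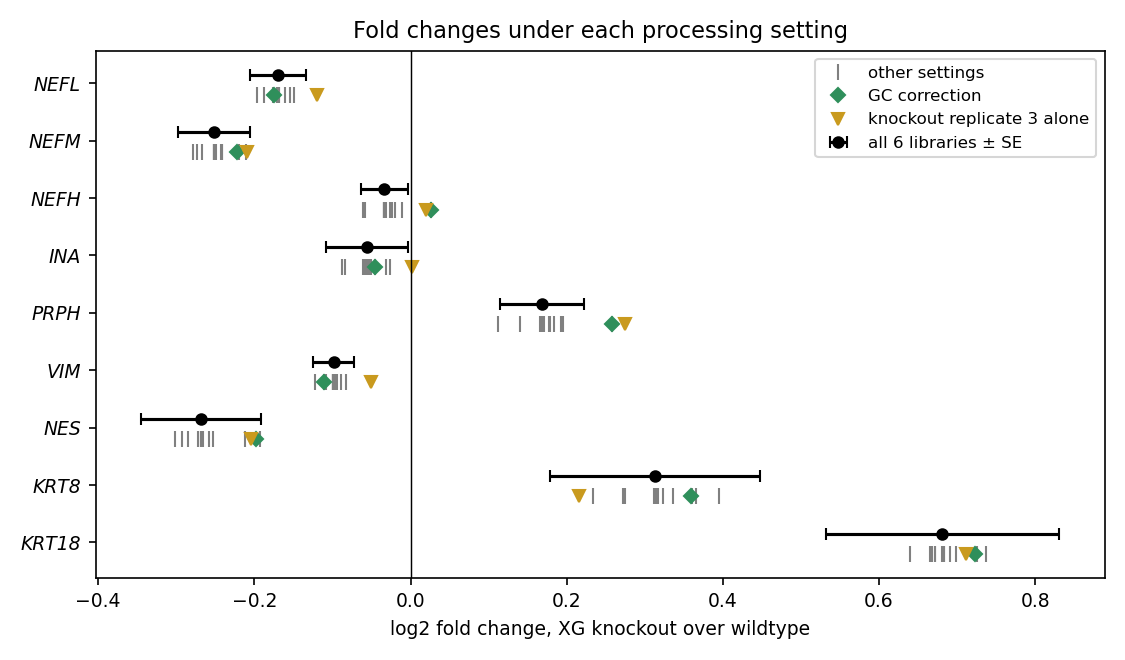
Log2 fold change of XG knockout over wildtype for 9 intermediate filament genes. Black points with bars are the fit of all 6 libraries with its SE, green diamonds the fit with GC correction, yellow triangles XG knockout replicate 3 alone, and grey ticks the other settings. NEFH and INA cross 0 in some settings, and NEFL, NEFM, VIM, NES, PRPH, KRT8 and KRT18 keep to their side.

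Genes that surround the filaments in the cell showed no call in the edgeR fit of all 6 libraries. A call and a lack of overlap between the groups are unlike measures. Some of these genes had groups that did not overlap, as did 20.5% of all genes tested. Of 160 genes in 8 lists, 159 matched a row and 107 were tested. Of these, edgeR called 0 at an adjusted p under 0.05, in a fit that called 1.36% of all genes. At an unadjusted p under 0.05 in edgeR, 25 of these 107 genes passed, against 2422 of all 14425 genes tested (16.8%). DESeq2 called 2 (STMN3 and PTBP1, both lower) and limma voom called 0, in fits that called 1.39% and 1.5% of all genes. With GC correction edgeR called 5, in a fit that called 2.36% of all genes. Without XG knockout replicate 3, edgeR called 25, most of them lower, among them 8 lower and 1 higher in the neuronal cytoskeleton list. That fit called 12.7% of all genes, 1329 lower and 522 higher.

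Other filament subunits gave low values or small differences. Of 7 further type III, type IV and related genes 4 were tested, with SYNM, the linker-like filament protein synemin, at 13.3 ± 1.05 CPM in XG knockout and 14.8 ± 0.842 CPM in wildtype libraries (SD, n = 3 each; log2 fold change -0.14, SE 0.0762, edgeR adjusted p = 0.370) and IFFO1 at 7.27 ± 0.156 and 7.43 ± 0.720 CPM. Of 34 other keratins matched, 3 were tested and 11 had a count in any library. KRT10 was at 18.6 ± 0.973 CPM in XG knockout and 17.1 ± 0.744 CPM in wildtype libraries (SD, n = 3 each; log2 fold change 0.12, edgeR adjusted p = 0.367). KRT17 was at 2.29 ± 0.136 and 1.86 ± 0.276 CPM (log2 fold change 0.29, edgeR adjusted p = 0.421). The groups of KRT10 overlapped. KRT17, like KRT8 and KRT18, lay higher in all XG knockout libraries, where its lowest value was 2.14 CPM, against a highest wildtype value of 2.10 CPM. KRT7 and KRT19, keratins of simple epithelia like KRT8 and KRT18, had at most 1 and 2 counts in any library.

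The lamins, the filaments of the nucleus, were abundant. LMNB2, a B-type lamin, was at 296 ± 21.3 CPM in XG knockout and 327 ± 7.12 CPM in wildtype libraries (SD, n = 3 each; log2 fold change -0.14, SE 0.0389, edgeR adjusted p = 0.0794). LMNA, the A-type lamin, was at 131 ± 9.46 and 145 ± 4.84 CPM (edgeR adjusted p = 0.0860, log2 fold change -0.15, SE 0.0431). Both transcripts are rich in GC, at 61.4% and 61.5%, and neither was called with GC correction. Without XG knockout replicate 3 both were called lower, 2 of 13 lamina genes, in a fit that called 12.7% of all genes. With all 6 libraries and the filter on low counts, none of the 13 lamina genes was called.

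Linkers, motors and modifying enzymes were not called either. PLEC, the plectin that ties filaments to other structures, was at 209 ± 27.9 CPM in XG knockout and 235 ± 6.05 CPM in wildtype libraries (SD, n = 3 each; log2 fold change -0.17, SE 0.0591, edgeR adjusted p = 0.160). MACF1, a linker of actin and microtubules, was at 209 ± 9.06 and 199 ± 4.24 CPM (log2 fold change 0.075, edgeR adjusted p = 0.267). KIF1A, a kinesin of axons, averaged 49.1 CPM in XG knockout and 56.4 CPM in wildtype libraries, and DYNC1I2, a dynein intermediate chain, 178 and 166 CPM. Their log2 fold changes were -0.20 and 0.095 (edgeR adjusted p = 0.0794 and 0.116, SE 0.0547 and 0.0299). The XG knockout libraries lay wholly below wildtype in KIF1A and wholly above in DYNC1I2, and the groups overlapped in PLEC and MACF1. STUB1, a ubiquitin ligase that works with chaperones, had a log2 fold change of -0.15 (edgeR adjusted p = 0.126).

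Among 24 tested genes of the other neuronal cytoskeleton, 16 had a negative and 8 a positive log2 fold change, with a median of -0.025. The median was -0.0027 with GC correction. It was -0.00041 with XG knockout replicate 3 alone and -0.044 without that library. At an unadjusted p under 0.05 in edgeR, 10 of the 24 genes passed, against 16.8% of all genes tested. With GC correction edgeR called 3 of the 24, 2 lower and 1 higher, in a fit that called 2.36% of all genes. STMN3, a microtubule regulator of the stathmin family, was at 107 ± 9.83 CPM in XG knockout and 122 ± 3.69 CPM in wildtype libraries (SD, n = 3 each; log2 fold change -0.19, SE 0.0490, edgeR adjusted p = 0.0593). DPYSL5, a collapsin response mediator, was at 58.9 ± 1.77 and 65.2 ± 1.47 CPM (edgeR adjusted p = 0.0799, log2 fold change -0.15, SE 0.0406). The XG knockout libraries lay wholly below wildtype in STMN3 and DPYSL5. PTBP1, a splicing repressor of neuronal exons, is in the list of RNA binding proteins and regulators of neuronal genes. Its log2 fold change was -0.13 (edgeR adjusted p = 0.0625), and its XG knockout libraries also lay wholly below wildtype.

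**Figure D4:**
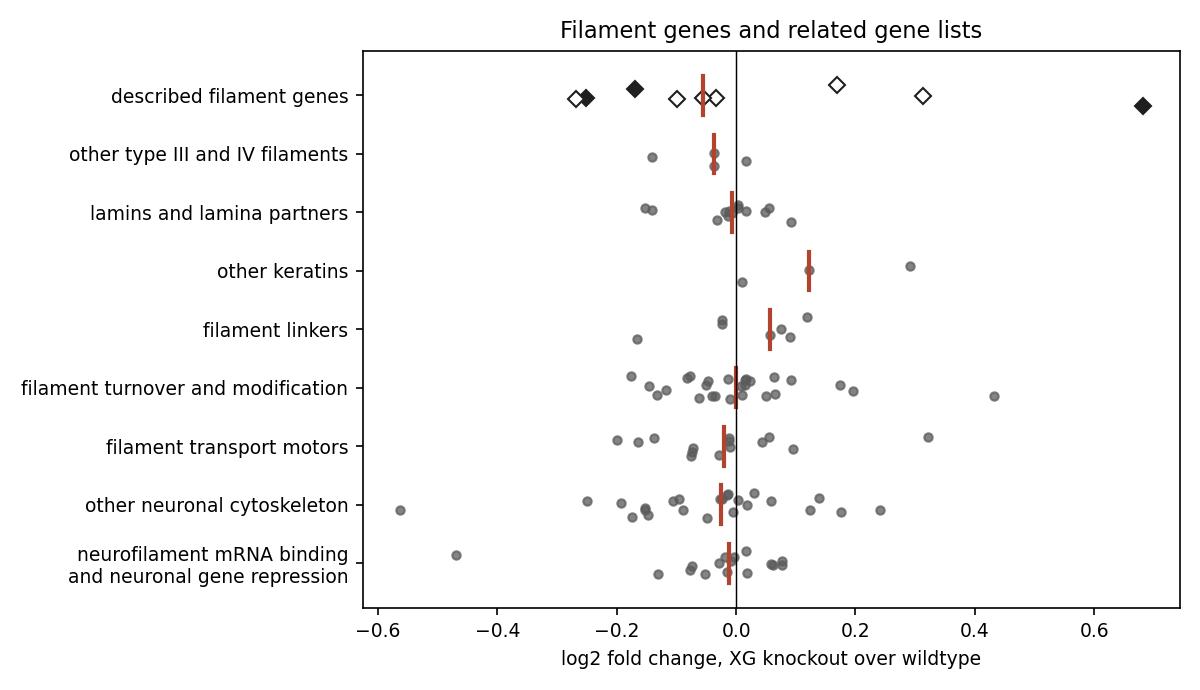
Log2 fold change of XG knockout over wildtype for 9 described filament genes (diamonds, filled where called) and for the tested genes of 8 related lists (points), with the median of each row as a red bar. No gene of the lists is called, and KRT18 lies farthest to the right, at 0.68.

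Genes around the neurofilament and keratin loci were looked at next. Within 1 Mb of NEFL and NEFM, 6 other genes were tested, edgeR called 0 of them, and 0 had an unadjusted p under 0.05. Over the whole table the same fit called 1.36% of genes tested, and 16.8% passed the unadjusted threshold. At these shares, 6 genes are too few for a count of 0 to set the locus apart. KCTD9, CDCA2, DOCK5 and EBF2 had log2 fold changes of 0.021, 0.00060, -0.073 and 0.14. GNRH1, the gene of gonadotropin-releasing hormone, had 15, 15 and 13 counts in XG knockout replicates 1, 2 and 3, against 5, 11 and 6 counts in wildtype replicates 1, 2 and 3, which did not overlap (log2 fold change 0.79, SE 0.388, edgeR adjusted p = 0.312). AF106564.1, a long noncoding RNA whose locus overlaps the start of NEFM on the opposite strand, was at 10.9 ± 1.03 CPM in XG knockout and 11.9 ± 0.110 CPM in wildtype libraries (SD, n = 3 each; log2 fold change -0.13, SE 0.0816, edgeR adjusted p = 0.446). Fragments were counted by strand, so the transcripts are kept apart. Around the keratin pair, edgeR called 0 of 28 genes tested within 1 Mb of KRT18. With 1.36% of all genes called, 28 genes are also too few for a count of 0 to set that locus apart.

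Over all member loci, 4 of 211 tested neighbours were called (1.9%), against 1.36% of all genes. Near NEFH, NIPSNAP1, a mitochondrial matrix protein, rose to 48.8 ± 1.09 CPM in XG knockout, against 41.4 ± 0.571 CPM in wildtype libraries (SD, n = 3 each; log2 fold change 0.24, SE 0.0438, edgeR adjusted p = 0.0126), and XBP1, a transcription factor of the unfolded protein response, rose by 0.13 on the log2 scale (edgeR adjusted p = 0.0420). Near GFAP, FMNL1, a formin of the actin cytoskeleton, fell to 72.7 ± 2.84 CPM, against 86.2 ± 2.22 CPM in wildtype libraries (log2 fold change -0.25, SE 0.0393, edgeR adjusted p = 0.00447), and UBTF, a factor for ribosomal RNA transcription, fell by 0.12 on the log2 scale (edgeR adjusted p = 0.0451). Most of these calls were lost when 1 library was left out. Without wildtype replicate 2, the edgeR adjusted p was 0.106 for NIPSNAP1, 0.226 for XBP1, 0.0601 for FMNL1 and 0.261 for UBTF, and without wildtype replicate 1, 0.105, 0.170 and 0.176 for NIPSNAP1, XBP1 and UBTF. Without wildtype replicate 3 the adjusted p was 0.0826, 0.210 and 0.191 for NIPSNAP1, XBP1 and UBTF, and without XG knockout replicate 2, 0.0584, 0.198 and 0.157. Without XG knockout replicate 1, XBP1 and UBTF had an adjusted p of 0.0852 and 0.118. With GC correction the log2 fold change of FMNL1 was -0.15, and UBTF was not called (adjusted p = 0.0617), nor was it with upper quartile scaling (0.0634).

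**Figure D5:**
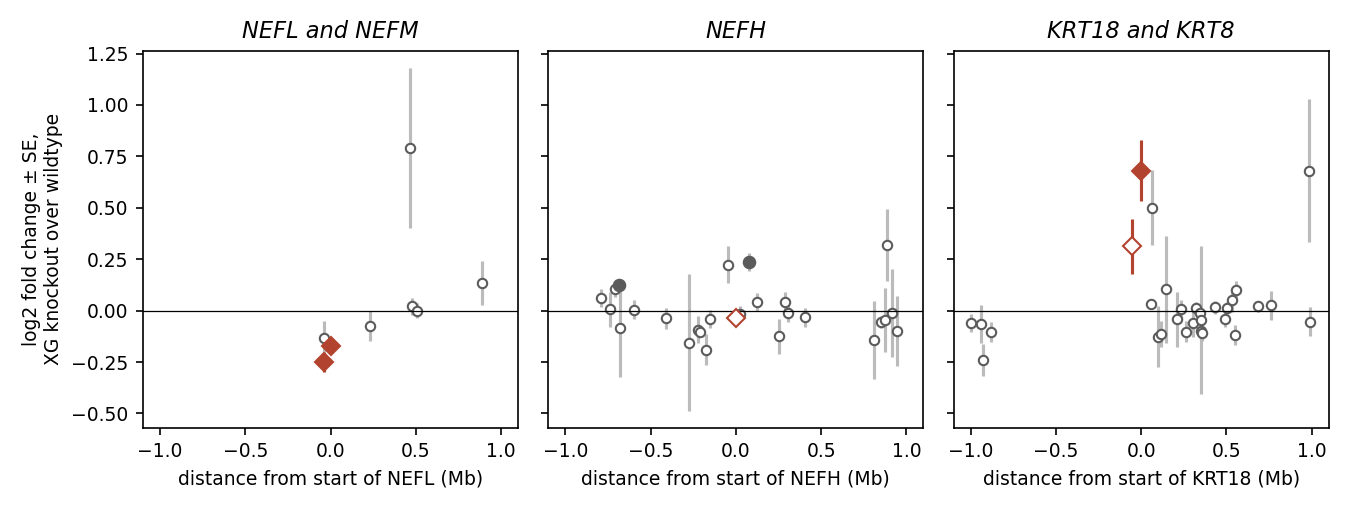
Log2 fold change with SE, XG knockout over wildtype, of tested genes within 1 Mb of NEFL, NEFH and KRT18, by distance from the start of that gene. Red diamonds are the named filament genes and circles their neighbours, filled where called. The neighbours of NEFL and NEFM lie between -0.13 and 0.79, with none called.

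The profiles of NEFL and NEFM over the 6 libraries were compared with those of protein-coding genes of at least 5 CPM, by the root mean square difference of log2 CPM after each gene was centred on its own mean. The genes most like NEFL were ATXN7L2, CUEDC1 and KLHL21, at 0.0103, 0.0146 and 0.0160, out of 10002. The genes most like NEFM were HSD17B8, LRRC14 and TBC1D17, at 0.0238, 0.0240 and 0.0321. NEFL ranked 92 among the genes most like NEFM, at 0.0628, and NES ranked 36, at 0.0538. NEFM ranked 1063 among those most like NEFL. By this measure the neighbouring genes NEFL and NEFM were each closer to many other genes than to one another. The measure includes the size of the difference between the groups, which was known when the set was chosen. Whether the neighbours vary together was not tested.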

How the data were processed

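Libraries were made from poly(A) RNA with a stranded kit, per the labels' protocols, and the reads went through bcl2fastq and STAR 2.7.6a (build GRCh38), per the submitters' processing notes. The authors deposited raw counts of fragments for each gene, from featureCounts 2.0.1 over GENCODE 33 exons, paired-end and reverse-stranded, per the file headers; no multi-mapping option was set. The deposited exon length of each gene is in bases, per the file headers, a unit other than a count. The authors also deposited log2 fold changes with standard errors and adjusted p-values, from DESeq2 1.38.3 in R 4.2.2, per the submitters' processing notes; their direction was checked against the counts (99.2% of genes tested had the same sign).

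Genes were kept by filterByExpr (minimum count 10, minimum total 15), scaled with TMM and tested two-sided by the quasi-likelihood test of edgeR 4.0.16 in R 4.3.3 (group as the one term), with Benjamini-Hochberg adjustment over 14425 genes and a threshold of 0.05. The median SE of a log2 fold change was 0.0636. For the GC correction, offsets took out each library's lowess trend (span 0.5) of centred log2 CPM on the GC content of the longest GENCODE transcript of an earlier release (99.5% of tested genes had a value). Alternatives were other scalings, DESeq2 1.42.0, limma voom 3.58.1, other filters, the replicate number as a block and leaving out each library. The procedure was tested on simulated data.

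The members, lists and alternatives were chosen with earlier results of these data known. Named are all members, XG, in each list called genes or otherwise the 2 with the smallest p, called neighbours, and the 3 genes most like NEFL and NEFM; other names (KRT7, KRT19, single markers and the uncalled neighbours of NEFM) were chosen after their values were seen. Some genes that this rule names are not reported here.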

Additional observations from a re-analysis of the deposited data

How the results depend on the processing

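The count of called genes was 196, and 137 to 217 with other scalings, DESeq2, limma voom, the stricter filter and the replicate block with GC correction; it was 647 with no filter on low counts, 339 with GC correction, 125 with XG knockout replicate 3 alone and 33 at an adjusted p of 0.01. Lower genes made up 67.3% of calls, 77.3% with no filter, 53.7% after GC correction, 52.7% with the replicate block and GC correction, and 43.2% with XG knockout replicate 3 alone (71 higher, 54 lower). The 3 called members became 4 with limma voom and with no filter (VIM added), 3 with DESeq2 (NEFL, NEFM and VIM), 2 with the stricter filter (NEFL and NEFM), 5 with GC correction, 5 with the replicate block and GC correction, and 0 at 0.01. The lists had 0 calls, and 10 with no filter, 5 with GC correction, and 2 each with DESeq2, the replicate block with GC correction and XG knockout replicate 3 alone. The neighbours had 4 calls, 8 with no filter, 2 with XG knockout replicate 3 alone, 1 at 0.01 and 2 within 0.5 Mb. Leaving out 1 library gave 18 to 1851 called genes, 0 to 5 members, 0 to 25 list genes and 0 to 28 neighbours, the highest each time without XG knockout replicate 3. NEFH turned to 0.026 on the log2 scale with GC correction, 0.026 with the replicate block and GC correction and 0.020 with XG knockout replicate 3 alone, and INA turned to 0.0021 with the last. The cause of these shifts was not tested.

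The labels give both groups the same replicate numbers. Deviations of same-numbered libraries correlated at -0.12, -0.23 and -0.13 for numbers 1, 2 and 3, and each library correlated better with another number. The deviations were taken from the mean of each group of 3 libraries. These correlations therefore cannot decide whether same-numbered libraries were prepared together, and the labels do not say. With the replicate block alone, 37 genes, 0 members, 0 list genes and 1 neighbour were called. KRT8 and KRT18 fell out under the stricter filter (100 counts in 3 libraries), and DESeq2 gave neither an adjusted p. At low counts such as those of KRT8, KRT18 and GFAP, depth limits what difference can be seen.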
